A study of Mus musculus with 90 samples.

Results

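The 9 enzymes described here, Ido1, Wars, Nos2, Gch1, Ass1, Arg1, Acod1, Sod2 and Lap3, belong to tryptophan, nitric oxide, biopterin, itaconate, peptide and redox metabolism. They were taken by gene symbol from the 53697 genes of a count table covering the mouse melanoma line YUMM2.1 and the mouse colon carcinoma line CT26. In each line, 15 groups of 3 samples were measured by 3′ digital gene expression, a form of RNA sequencing that reads the 3′ ends of transcripts. Every culture was kept in RPMI-1640 with foetal bovine serum and antibiotics, and was plated 48 h before harvest. Control cultures received bovine serum albumin (BSA) with IFNγ at 0 IU/mL and were sampled at 0, 1, 2 and 3 weeks. Naive cells received IFNγ at 50 IU/mL for 2 h or 24 h. Long-term cultures received 50 IU/mL for 1, 2 or 3 weeks and were sampled without rechallenge or after 2 h or 24 h of rechallenge with IFNγ. Both are established lines grown alone, so no host cells were present in the design, and the labels describe the 3 samples of a group as triplicate experiments.

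IFNγ binds its receptor, activates JAK kinases, and through transcription factors such as IRF1 raises the transcription of many genes, among them several metabolic enzymes. Ido1, indoleamine 2,3-dioxygenase, opens the kynurenine pathway by oxidising tryptophan, and Wars, the cytosolic tryptophanyl-tRNA synthetase, charges tRNA with the same amino acid. Nos2 makes nitric oxide from arginine with the cofactor tetrahydrobiopterin, whose synthesis begins with Gch1, while Arg1 breaks arginine down and Ass1 takes part in rebuilding it from citrulline. Acod1 makes itaconate from the citrate-cycle intermediate cis-aconitate, Sod2 converts superoxide in mitochondria, and Lap3 is a cytosolic leucine aminopeptidase that trims peptides. In macrophages several of these genes are classic IFNγ-inducible genes. The comparisons below ask which of them responded to IFNγ in tumour cells, and whether that response was kept after prolonged exposure.

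The depth of a sample, its total count, was 274719 to 3161276 in YUMM2.1 and 295157 to 2205285 for CT26. In all, 3 samples had less than 25% of their line's median. These were replicate 3 of the 3-weeks IFNγ group without rechallenge in both lines and replicate 3 of the 1-week IFNγ group without rechallenge in CT26. Called log2 fold changes that rest on them are also given without them. No pair of samples held identical counts. Levels are given as CPM, the count of a gene divided by the total count of the sample and expressed on the same scale for every sample. Sox10, a neural crest factor, was measured in YUMM2.1 at 28.7 CPM pooled over the line, whereas CT26 had 0 counts of it. Of the other melanocyte markers, Mitf, Dct and Tyr were at 2.06, 0.801 and 0.215 CPM in YUMM2.1 and at 2.60, 2.25 and 0.371 CPM in CT26. Over all samples of YUMM2.1 and of CT26, Pmel had 19 and 2 counts, Tyrp1 0 and 1, and Mlana 1 and 0. CT26 had Krt20 at 56.4 CPM and Krt18 at 16.7 CPM, whereas Krt19, Epcam, Cdh1 and Vil1 were at 0. The IFNγ target Irf1 checked the treatment labels, and rose by 4.07 (YUMM2.1) and 3.46 (CT26) on the log2 scale after 2 h in naive cells. Cd274, which encodes PD-L1, went from 7 to 16 counts over the 3 samples in YUMM2.1 at 24 h and from 0 to 22 in CT26. In YUMM2.1 these samples overlapped with the controls and the change was not called (log2 fold change 1.14, edgeR adjusted p = 0.797). The CT26 change was called (edgeR adjusted p = 5.31e-05).

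Only some of the 9 enzymes were expressed at a level that could be tested. Nos2 and Arg1 had 0 counts in all 90 samples, which allows up to 0.0429 CPM over the YUMM2.1 samples and 0.0531 CPM over the CT26 samples. Ido1 had 0 counts in the 45 YUMM2.1 samples and 65 in CT26. Acod1 had 6 counts in YUMM2.1 and 3 in CT26, and Ass1 had 744 in YUMM2.1 but 1 in CT26. Wars, Sod2, Lap3 and Gch1 were measured in both lines, Gch1 in 41 of 45 YUMM2.1 samples and 44 of 45 CT26 samples. After a filter that leaves out genes with too few counts to test, 4 members remained in YUMM2.1 (Wars, Ass1, Sod2, Lap3) and 4 in CT26 (Wars, Gch1, Sod2, Lap3). Limits from counts of 0 and intervals on pooled CPM cover counting error only. In these whole-culture RNA samples, more transcript per cell and more expressing cells cannot be told apart.

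**Figure D1:**
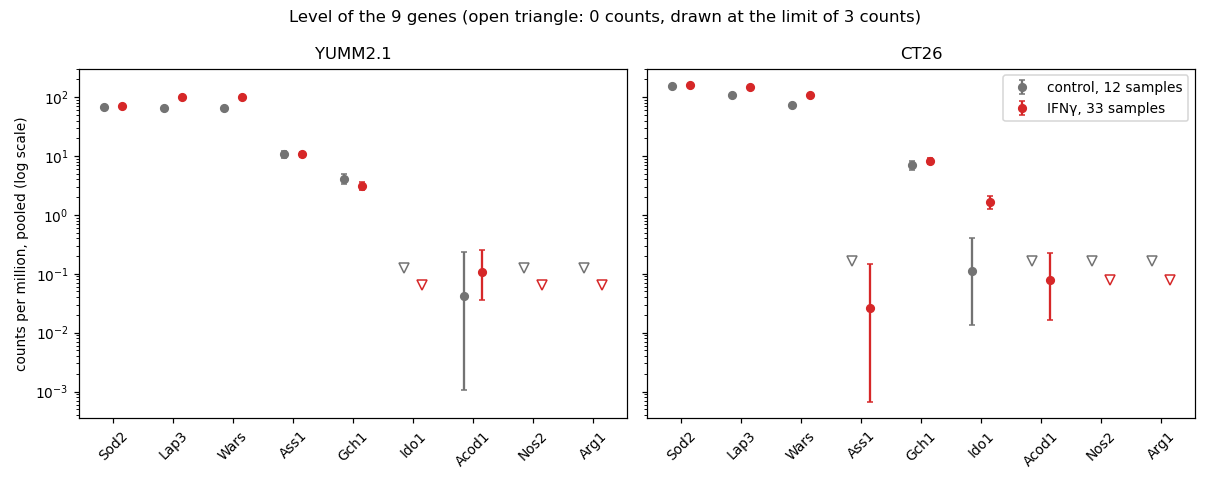
Pooled CPM of each of the 9 enzymes in the 12 control and 33 IFNγ samples of each line, on a log axis with exact Poisson 95% intervals. Open triangles stand for 0 counts and are drawn at the limit of 3 counts, where Nos2 and Arg1 lie in both lines. Levels are not divided by transcript length, so the heights of different genes are not compared.

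Changes are given as log2 fold changes with standard errors (SE) from edgeR's quasi-likelihood model of all 15 groups of each line, n = 3 samples per group, and a gene was called at a Benjamini-Hochberg adjusted p below 0.05 over all genes tested. Of the tested enzymes, 2, Wars and Lap3, were called in any of 12 comparisons per line (IFNγ against matched control, rechallenge against no rechallenge, and late against early control). Wars was called in 2 of 12 in YUMM2.1 and 4 of 12 in CT26, and Lap3 in 3 and 2. Sod2 was called in 0 of 12 in both lines, as were Ass1 in YUMM2.1 and Gch1 in CT26. All 11 calls were increases. Per comparison, the share of all tested genes called was 0% to 1.42% in YUMM2.1 and 0% to 7.23% in CT26. No share over the 12 comparisons together was computed, nor was the share of all tested genes whose samples did not overlap. Lack of overlap below is therefore description only, and an uncalled change without overlap is not read as a response.

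In control cultures Wars stayed within a narrow range, 60.3 to 68.9 CPM in 12 YUMM2.1 samples (median 63.4) and 60.4 to 85.7 CPM in 12 CT26 samples (median 72.1). In the 33 IFNγ samples of each line it spanned 43.7 to 192 CPM (median 91.9) and 49.6 to 166 CPM (median 106). The lowest treated values came from samples with few counts of Wars, 12 counts in replicate 3 of the YUMM2.1 3-weeks IFNγ group and 16 counts in replicate 3 of the CT26 1-week IFNγ group. Lap3 ran from 47.2 to 80.0 CPM in YUMM2.1 controls (median 63.0) and from 58.2 to 170 CPM with IFNγ (median 102). In CT26 Lap3 ran from 74.7 to 129 CPM in controls (median 104) and from 99.2 to 219 CPM with IFNγ (median 146). The upper end was therefore higher with IFNγ for both genes in both lines, with overlap at the lower end.

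**Figure D2:**
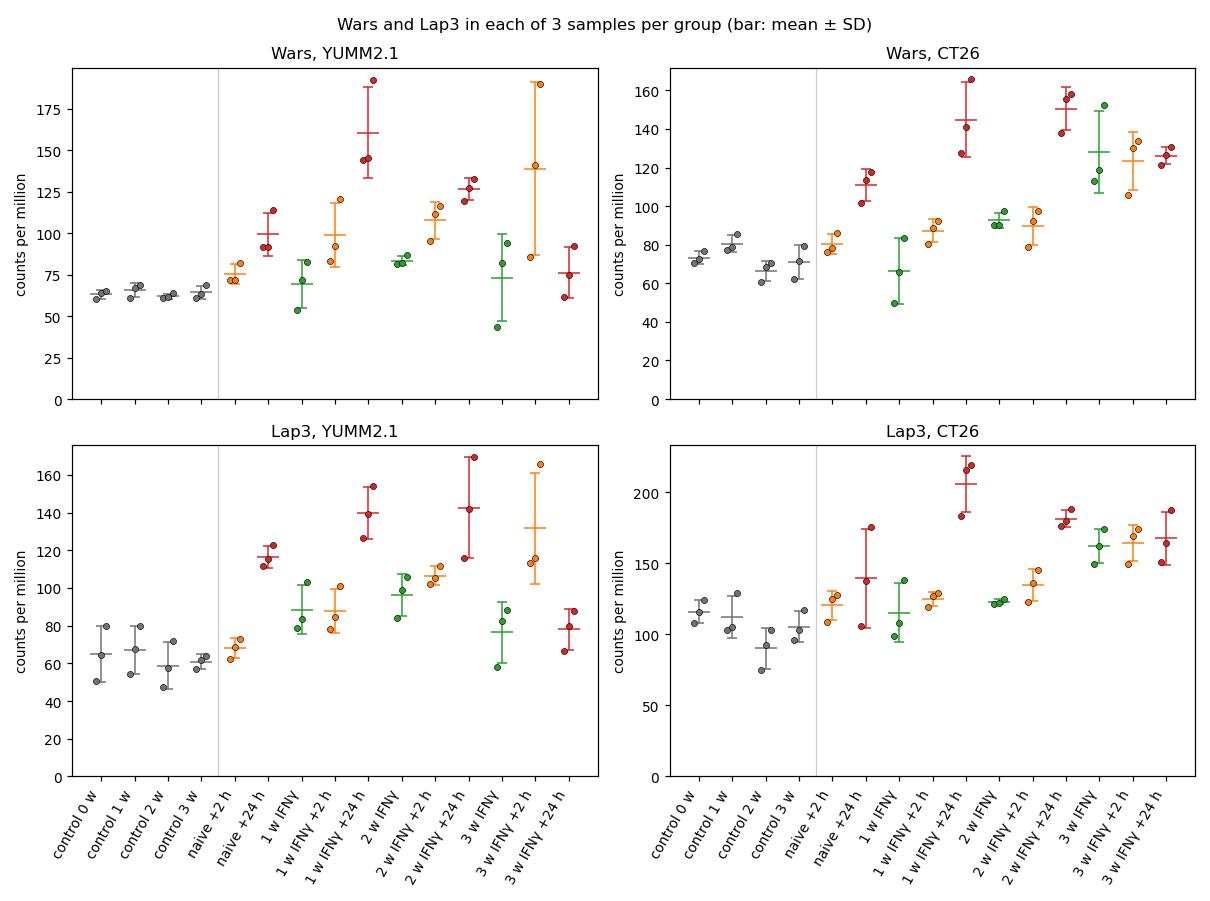
Wars and Lap3 CPM in each of the 15 groups of YUMM2.1 and CT26, with points for the 3 samples and bars for the group mean and SD. Group means of Wars reach 161 CPM in YUMM2.1 after 24 h rechallenge at 1 week and 150 CPM in CT26 after 24 h rechallenge at 2 weeks, while controls stay near their 0-week level.

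Ordered by group mean, Wars in YUMM2.1 was highest after 24 h rechallenge at 1 week (161 CPM), then after 2 h rechallenge at 3 weeks (139 CPM) and 24 h rechallenge at 2 weeks (127 CPM). The samples of 24 h rechallenge at 2 weeks did not overlap with those of the next group, 2 h rechallenge at 2 weeks at 108 CPM, whereas those of 2 h rechallenge at 3 weeks did. The lowest mean was 62.0 CPM in the 2-week control. In CT26 the 6 highest Wars groups were 24 h rechallenge at 2 weeks and at 1 week (150 and 145 CPM), the 3 groups exposed for 3 weeks (128, 126 and 123 CPM) and naive cells at 24 h (111 CPM). The next mean, 92.6 CPM after 2 weeks without rechallenge, did not overlap with these. All other neighbours in the 2 orders overlapped. Neighbouring Lap3 groups overlapped throughout, from 143 CPM (24 h rechallenge at 2 weeks) down to 58.9 CPM (2-week control) in YUMM2.1 and from 206 CPM (24 h rechallenge at 1 week) down to 90.1 CPM (2-week control) in CT26.

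Naive cells gave no call after 2 h of IFNγ and 1 call per line after 24 h. In YUMM2.1, Lap3 was 64.3, 50.5 and 80.0 CPM in the 0-week control, 73.0, 68.7 and 62.4 CPM at 2 h, and 115, 111 and 123 CPM at 24 h. The 24 h samples all lay above the controls, and Lap3 rose 1.73-fold (log2 fold change 0.79, SE 0.17, edgeR adjusted p = 0.00278). The Lap3 call was lost when replicate 1 or replicate 2 of every group was left out (edgeR adjusted p = 0.144 and 0.187). Wars went from 65.3, 60.3 and 63.8 CPM to 71.7, 82.2 and 71.6 CPM at 2 h and 114, 91.9 and 91.8 CPM at 24 h. Its 24 h samples did not overlap with the controls either, and the log2 fold change of 0.60 (SE 0.18) did not pass after adjustment (edgeR adjusted p = 0.13). Thus 1 of 4 tested members was called at 24 h, where 0.886% of all tested genes were called, and 0 of 4 at 2 h, where 0.24% were. The 2 h and 24 h comparisons share their control samples.

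In CT26 Wars was called at 24 h and Lap3 was not. Wars was 72.7, 70.3 and 76.9 CPM in the 0-week control, 78.4, 86.0 and 76.3 CPM at 2 h, and 118, 102 and 114 CPM at 24 h. It rose 1.53-fold at 24 h (log2 fold change 0.62, SE 0.12, edgeR adjusted p = 0.0011), with every treated sample above every control. The Wars call was lost without replicate 1 or 2 (edgeR adjusted p = 0.0676 and 0.0851) and without the filter on low counts (0.115). Lap3 was 124, 108 and 116 CPM in the control and spread over 106, 137 and 176 CPM at 24 h, and its log2 fold change of 0.33 (SE 0.14) was not called (edgeR adjusted p = 0.327). The call at 24 h was 1 of 4 tested members against 2.04% of all tested genes, and at 2 h 0 of 4 against 0.235%. Whether the lines differed in the 24 h response was tested directly in 1 fit over both. The difference, YUMM2.1 less CT26, was −0.04 (SE 0.22) for Wars and 0.44 (SE 0.22) for Lap3, and neither was called (edgeR adjusted p = 1 and 0.613), with 0.087% of all tested genes called. For Lap3 the 95% interval of the difference ran from −0.01 to 0.88 on the log2 scale.

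After prolonged exposure without rechallenge, Lap3 was called in YUMM2.1 at 2 weeks and Wars in CT26 at 3 weeks. At 1 week 0 of 4 members were called in YUMM2.1 (0.73% of all tested genes) and 0 of 4 in CT26 (0.728%). The CT26 log2 fold changes were −0.26 for Wars and 0.00 for Lap3, and −0.17 and 0.06 without the sample of low depth. In YUMM2.1 at 2 weeks, Lap3 was 106, 98.8 and 84.1 CPM against 71.6, 47.2 and 57.7 CPM in the control. This was a 1.60-fold increase without overlap (log2 fold change 0.68, SE 0.17, edgeR adjusted p = 0.0276), and 1 of 4 members was called beside 1.12% of all tested genes. The call was lost when any of the 3 replicates was left out (edgeR adjusted p = 0.259, 0.499 and 0.134). In CT26 at 2 weeks 0 of 4 members were called (1.67% of all tested genes), with log2 fold changes of 0.39 for Wars and 0.36 for Lap3. Wars in YUMM2.1 at 2 weeks was 86.6, 81.4 and 82.2 CPM against 63.7, 61.3 and 61.0 CPM, also without overlap, but its log2 fold change of 0.41 (SE 0.18) was not called (edgeR adjusted p = 0.558).

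At 3 weeks the 2 lines gave different calls. In CT26, Wars was 113, 152 and 119 CPM against 62.2, 79.5 and 71.5 CPM in the 3-week control. It rose 1.57-fold (log2 fold change 0.65, SE 0.13, edgeR adjusted p = 0.000377), and 1 of 4 members was called where 7.23% of all tested genes were. Lap3 was 174, 150 and 163 CPM against 103, 95.8 and 117 CPM, without overlap, with a log2 fold change of 0.42 (SE 0.14) and an edgeR adjusted p of 0.0588. Without the sample of low depth the values were 0.67 and 0.41, with Wars called. It was not called without replicate 2 (edgeR adjusted p = 0.078). In this comparison the scaling mattered. With library totals in place of TMM, the median of all genes moved by 0.20 on the log2 scale, the split of calls over all genes went from 293 higher and 323 lower to 461 higher and 120 lower, and Wars read 0.86. In YUMM2.1, Wars at 3 weeks was 82.2, 93.9 and 43.7 CPM against 61.2, 63.1 and 68.9 CPM, the third value coming from the sample of low depth. Its log2 fold change was 0.21 (SE 0.18, edgeR adjusted p = 0.731), and Lap3 had 0.31 (SE 0.17, edgeR adjusted p = 0.536), so that 0 of 4 members were called (0.97% of all tested genes). Without the sample of low depth these values were 0.37 and 0.42, still not called. The difference between the lines was −0.50 (SE 0.22) for Wars and −0.17 (SE 0.23) for Lap3, and neither was called (edgeR adjusted p = 0.709 for Wars; 0.106% of all tested genes).

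Rechallenge for 2 h gave 1 call in 6 comparisons. In YUMM2.1 after 3 weeks, Wars rose from 82.2, 93.9 and 43.7 CPM to 141, 190 and 85.5 CPM, and the groups overlapped at the value of 85.5 CPM. The increase was 1.65-fold (log2 fold change 0.72, SE 0.18, edgeR adjusted p = 0.0261, 1 of 4 members against 1.08% of all tested genes). Without the sample of low depth it was 0.58 and was not called (edgeR adjusted p = 0.138), nor was it without replicate 1 or 2 of every group (0.39 and 0.397) or with only the compared groups fitted (0.488). Lap3 in the same samples went from 88.4, 82.5 and 58.2 CPM to 116, 166 and 113 CPM without overlap, with a log2 fold change of 0.63 (SE 0.17, edgeR adjusted p = 0.0512), or 0.54 without the sample of low depth. After 1 and 2 weeks 0 of 4 members were called in YUMM2.1 (0.615% and 0.428% of all tested genes). In CT26 0 of 4 were called after 1, 2 or 3 weeks (0.376%, 0.305% and 0.0117%), and Wars moved by 0.23, −0.04 and −0.04 on the log2 scale.

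Both enzymes rose in both lines with 24 h of rechallenge after 1 week. In YUMM2.1, Wars rose from 82.4, 71.7 and 53.7 CPM to 144, 145 and 192 CPM. This was a 2.17-fold increase (log2 fold change 1.12, SE 0.17, 95% interval 0.77 to 1.47, edgeR adjusted p = 1.27e-05). Lap3 rose from 83.5, 78.6 and 103 CPM to 154, 126 and 139 CPM, or 1.59-fold (log2 fold change 0.67, SE 0.16, edgeR adjusted p = 0.0168). Neither gene's groups overlapped, and 2 of 4 members were called where 1.42% of all tested genes were. The Lap3 call was lost without replicate 1 or 2 (edgeR adjusted p = 0.6 and 0.155), whereas Wars was called in every alternative run in both lines. In CT26, Wars rose from 83.6, 65.6 and 49.6 CPM to 128, 141 and 166 CPM, a 1.94-fold increase (log2 fold change 0.96, SE 0.14, edgeR adjusted p = 1.58e-06). Lap3 rose from 139, 108 and 99.2 CPM to 216, 183 and 219 CPM, or 1.64-fold (log2 fold change 0.71, SE 0.14, edgeR adjusted p = 0.0017). Here too 2 of 4 members were called, with 1.32% of all tested genes. Without the CT26 sample of low depth the log2 fold changes were 0.85 for Wars and 0.63 for Lap3, both still called. The Lap3 call was lost without replicate 2 (edgeR adjusted p = 0.0947).

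After 2 weeks the 24 h rechallenge again raised both genes in CT26. Wars went from 90.2, 97.2 and 90.4 CPM to 158, 138 and 156 CPM, a 1.62-fold increase (log2 fold change 0.69, SE 0.11, edgeR adjusted p = 0.000134). Lap3 went from 122, 125 and 122 CPM to 180, 176 and 188 CPM, or 1.47-fold (log2 fold change 0.55, SE 0.13, edgeR adjusted p = 0.0266). The 2 calls of 4 members stood beside 0.658% of all tested genes. Without replicate 1 neither was called (edgeR adjusted p = 0.0525 and 0.401), and Lap3 was not called without replicate 2 or 3 (0.419 and 0.0815). In YUMM2.1, Wars went from 86.6, 81.4 and 82.2 CPM to 127, 119 and 133 CPM and Lap3 from 106, 98.8 and 84.1 CPM to 170, 116 and 142 CPM. Neither pair of groups overlapped and the log2 fold changes were of similar size, 0.61 (SE 0.17) and 0.56 (SE 0.16), but 0 of 4 members were called (edgeR adjusted p = 0.11 and 0.121; 0.615% of all tested genes).

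After 3 weeks no change with 24 h of rechallenge was detected. In YUMM2.1, Wars was 61.4, 75.1 and 92.2 CPM against 82.2, 93.9 and 43.7 CPM without rechallenge, and Lap3 was 79.8, 66.4 and 87.9 CPM against 88.4, 82.5 and 58.2 CPM. The log2 fold change was −0.05 for both, with 95% intervals of −0.43 to 0.32 and −0.41 to 0.31, and −0.19 and −0.14 without the sample of low depth. In CT26, Wars was 121, 127 and 130 CPM against 113, 152 and 119 CPM, and Lap3 was 165, 151 and 187 CPM against 174, 150 and 163 CPM. The log2 fold changes were 0.02 (95% interval −0.24 to 0.27) and 0.07 (−0.21 to 0.36), or 0.00 and 0.09 without the sample of low depth. The intervals of both lines end below the 24 h rechallenge values of both genes after 1 week. By edgeR 0 genes at all were called in either line in this comparison (0% of those tested), with 351 genes in YUMM2.1 and 439 in CT26 at an unadjusted p below 0.05, and DESeq2 called 1 and 0. The absence of calls was thus not particular to these enzymes. Irf1 was not called either, with log2 fold changes of 0.17 (YUMM2.1) and −0.24 (CT26). With 2 h of rechallenge after 3 weeks, Irf1 did rise in YUMM2.1 (log2 fold change 2.78, SE 0.20, edgeR adjusted p = 7.77e-15). In CT26 it was not called at 2 h (0.46, SE 0.18, edgeR adjusted p = 0.577).

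**Figure D3:**
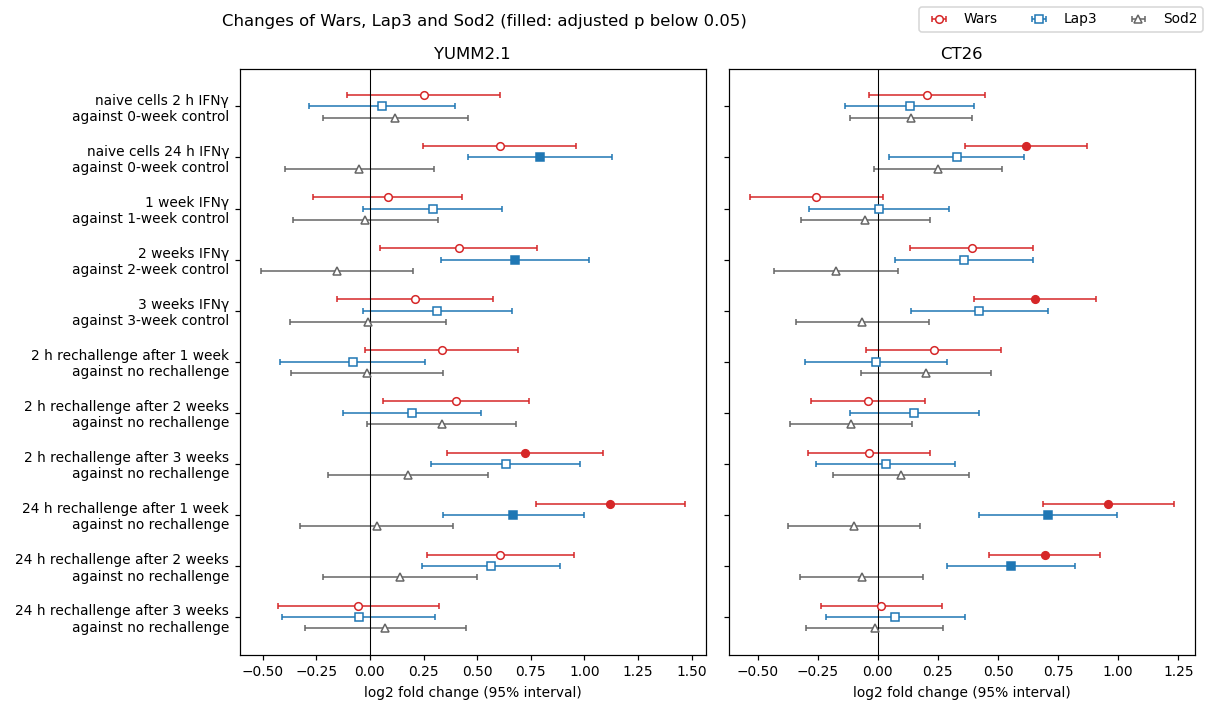
Log2 fold changes of Wars, Lap3 and Sod2 in each line, with points for the edgeR estimate (filled where called) and bars for its 95% interval. Of the 12 comparisons, that of late against early control is not drawn. Wars and Lap3 lie to the right of 0 after 24 h rechallenge at 1 week in both lines and near 0 after 3 weeks. Over all 12 comparisons, Sod2 stays between −0.27 and 0.33.

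The difference in the 24 h change between 1 and 3 weeks was tested as a difference of responses, a comparison chosen after the data had been seen. For Wars the response after 3 weeks less that after 1 week was −1.17 (SE 0.25, edgeR adjusted p = 0.00745) in YUMM2.1 and −0.94 (SE 0.18, edgeR adjusted p = 0.00168) in CT26. For Lap3 it was −0.72 (SE 0.24, edgeR adjusted p = 0.30) and −0.64 (SE 0.20, edgeR adjusted p = 0.212). Each line had 1 of 4 members called, beside 0.542% and 0.47% of all tested genes. In YUMM2.1 the Wars mean after rechallenge was lower at 3 weeks than at 1 week (76.2 against 161 CPM). In CT26 it was the Wars mean without rechallenge that was higher at 3 weeks (128 against 66.3 CPM). The Wars call was lost in YUMM2.1 without replicate 1 or 2 (edgeR adjusted p = 0.511 and 0.408) and in CT26 without replicate 2 or 3 (0.481 and 0.198). Without the samples of low depth it was −1.31 and −0.85, both called. The planned comparison with the naive 24 h response gave no call. For Wars the response after 3 weeks less the naive response was −0.66 (SE 0.26, edgeR adjusted p = 0.584) in YUMM2.1 and −0.60 (SE 0.18, edgeR adjusted p = 0.107) in CT26, and for Lap3 it was −0.84 (SE 0.24, edgeR adjusted p = 0.132) and −0.25 (SE 0.20, edgeR adjusted p = 0.891). All tested genes were called at 0.615% and 1.2%. The 2 h response after 3 weeks did not differ detectably from that of naive cells for any tested member (0.115% and 0.211% of all tested genes).

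The level reached after 24 h of rechallenge at 1 week was also set against the level of naive cells at 24 h, again a comparison added after seeing the data. In YUMM2.1 Wars was 144, 145 and 192 CPM against 114, 91.9 and 91.8 CPM, 1.63-fold higher (log2 fold change 0.70, SE 0.17, edgeR adjusted p = 0.0187; 1 of 4 members, 0.834% of all tested genes). That call was lost when any of the 3 replicates was left out (edgeR adjusted p = 0.293, 0.188 and 0.134). Lap3 was 1.19-fold higher and not called (edgeR adjusted p = 0.754). In CT26 the log2 differences were 0.30 (SE 0.12) for Wars and 0.44 (SE 0.14) for Lap3, and 0 of 4 members were called (edgeR adjusted p = 0.312 and 0.124; 1.36% of all tested genes). No change with time in culture was detected. Between 0 and 3 weeks, the log2 change in control cultures was 0.06 (YUMM2.1) and 0.03 (CT26) for Wars, and −0.09 and −0.05 for Lap3, with 0 of 4 members called (0.521% and 0.916% of all tested genes).

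Wars lies on chromosome 12 from 108860030 to 108894174, minus strand (GRCm38, GENCODE M21), and Lap3 on chromosome 5 from 45493374 to 45512691, plus strand. The annotated span of Wars overlaps that of Wdr25 on the opposite strand, which had 209 counts over all 90 samples against 6128 and 5494 for Wars in YUMM2.1 and CT26. Whether strand was used in counting is not given in the sources used here. Sod2 lies on chromosome 17 from 13006846 to 13040063, plus strand. The RefSeq start of Sod2 used below lies inside this span. The bases shown before that start are therefore within the GENCODE gene. The window from 250 bases before to 50 bases after the RefSeq start (GRCm38.p6) was read for 5 of the 9 members (Gch1, Ass1, Acod1, Sod2 and Lap3). It was searched on both strands for TTCNNNGAA, the letters of the gamma-activated site (GAS), for an interferon-stimulated response element (GAAA and GAAA with 2 bases of any kind between) and for a kB-type motif (GGG and CC with 5 bases of any kind between). The 250 bases before the start of Sod2 and Lap3 are shown because they set a gene with no called change beside one that rose, and capitals mark GAS letters.
Sod2, chr17:13007589-13007838, plus strand: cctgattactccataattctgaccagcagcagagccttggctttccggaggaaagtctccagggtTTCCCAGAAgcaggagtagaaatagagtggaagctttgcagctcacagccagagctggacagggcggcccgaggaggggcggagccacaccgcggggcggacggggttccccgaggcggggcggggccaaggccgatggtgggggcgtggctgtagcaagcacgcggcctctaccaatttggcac
Lap3, chr5:45493124-45493373, plus strand: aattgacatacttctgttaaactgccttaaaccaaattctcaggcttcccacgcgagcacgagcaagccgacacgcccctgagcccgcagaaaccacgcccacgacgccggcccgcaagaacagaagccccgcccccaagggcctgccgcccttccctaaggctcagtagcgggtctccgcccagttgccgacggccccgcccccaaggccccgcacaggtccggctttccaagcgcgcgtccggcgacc
Of the 5 windows, that of Sod2 held the GAS letters, at −185 to −177 from the start and overlapping no other motif searched, and the other 4 did not. GAS letters were found in 8.47% of 27025 RefSeq promoter windows. The response-element letters were in 0 of the 5 windows and in 3.49% of all, and the kB-type letters in 5 of 5 and in 50.4% of all. Lap3, the riser among the 5, had neither GAS nor response-element letters in this window, which says only that these letters are not there.

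Ido1, on chromosome 8 from 24584136 to 24597009, minus strand, was counted in CT26 alone and at a few counts per sample. In the 12 CT26 control samples it had 2 counts, 1 in each of 2 samples of the 3-week control, or 0.11 CPM pooled (exact Poisson 95% interval 0.0134 to 0.399). In the 33 CT26 IFNγ samples it had 63 counts, spread over 21 samples, or 1.64 CPM (1.26 to 2.097). The ratio of the pooled levels was 14.8, with a counting interval of 3.94 to 125. That interval covers counting error alone, not the spread between samples or between the unlike groups pooled. Pooled over the IFNγ samples, CT26 was at least 25.1-fold higher than YUMM2.1, where the 0 counts were set to 3 over the group. This takes the CT26 level as measured, without its counting error.

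Within CT26, Ido1 counts were low in naive cells and without rechallenge at 1 week, and highest after 24 h rechallenge at 1 week. The counts per sample were 0, 0 and 0 in naive cells at 2 h and 1, 3 and 0 at 24 h. At 1 week they were 0, 0 and 0 without rechallenge, 2, 0 and 0 after 2 h, and 7, 7 and 5 after 24 h, the latter being 6.77, 5.21 and 4.74 CPM. This group, at 5.54 CPM pooled, was at least 4.61-fold higher than 1 week without rechallenge and at least 9.13-fold higher than the 1-week control, with 3 counts over each group of 0 as the floor. Both folds take the 5.54 CPM as measured, without its counting error. Against naive cells at 24 h the ratio was 3.43 with a counting interval of 1.14 to 13.9, which leaves out the spread between samples. The naive sample with 3 counts was at 4.85 CPM, within the range of the rechallenged samples. Fitted without the filter on low counts, this comparison was not called (log2 fold change 1.51, SE 1.04).

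At 2 weeks Ido1 counts were 1, 1 and 0 without rechallenge, 1, 0 and 0 after 2 h, and 5, 2 and 3 after 24 h. At 3 weeks they were 2, 5 and 1 without rechallenge, 2, 4 and 3 after 2 h, and 1, 4 and 3 after 24 h, so that a count was present in all 9 samples of the 3-week exposure with or without rechallenge. Ido1 did not pass the filter on low counts. Fitted without that filter it was not called in naive cells at 24 h (edgeR adjusted p = 0.393), at 3 weeks (0.284) or after 24 h rechallenge at 1 week (0.075).

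**Figure D4:**
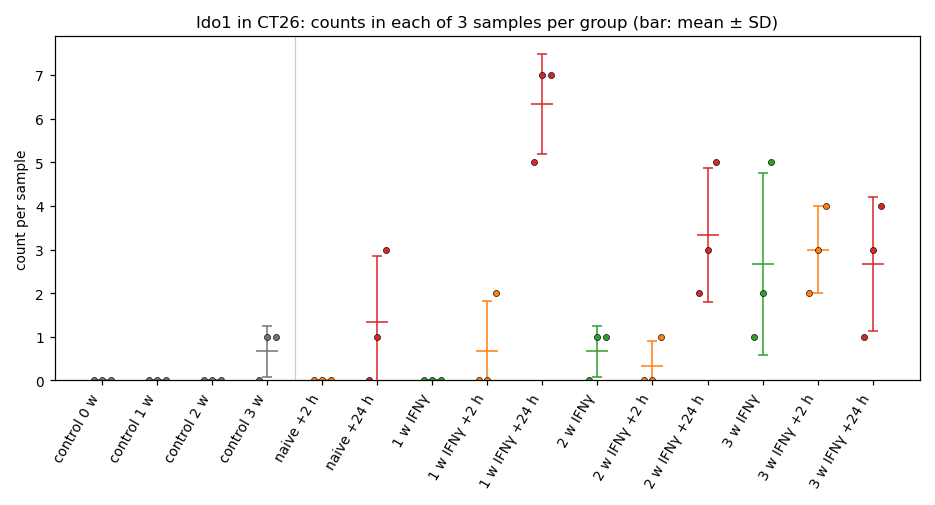
Ido1 counts in each of the 45 CT26 samples, by group, with 1 point per sample. Counts reach 7, 7 and 5 after 24 h rechallenge at 1 week, and the 12 controls hold 2 counts in all.

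Sod2, the mitochondrial superoxide dismutase, was well counted in every sample and had no called change. It was 54.5 to 88.0 CPM in YUMM2.1 controls (median 64.1) and 47.1 to 91.1 CPM with IFNγ (median 71.0). In CT26 it was 128 to 180 CPM in controls (median 152) and 119 to 214 CPM with IFNγ (median 156). In YUMM2.1 naive cells it was 74.4, 57.9 and 88.0 CPM in the control and 87.4, 65.5 and 70.5 CPM at 24 h, with overlap. In CT26 it was 152, 136 and 153 CPM and then 179, 192 and 151 CPM, also with overlap, and its log2 fold change of 0.25 was not called (edgeR adjusted p = 0.476). Over the 12 comparisons its log2 fold change lay between −0.27 and 0.33 in YUMM2.1 and between −0.18 and 0.25 in CT26.

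Ass1, the argininosuccinate synthetase, had no called change in YUMM2.1. It lies on chromosome 2 from 31470207 to 31520672, plus strand, and was 7.50, 2.46 and 5.58 CPM in the YUMM2.1 0-week control, 13.9, 13.4 and 13.5 CPM at 2 h of IFNγ and 10.5, 12.7 and 12.8 CPM at 24 h. The naive groups did not overlap with the 0-week control, but the control rested on 25 counts, and the log2 fold changes of 1.27 and 1.07 were not called (edgeR adjusted p = 0.283 and 0.356). The other controls lay higher than the 0-week control. In the 3-week control Ass1 was 8.92, 15.02 and 13.5 CPM, a log2 difference of 1.17 from the start that was not called either (edgeR adjusted p = 0.15). With 3 weeks of IFNγ it was 9.27, 8.25 and 3.64 CPM, a log2 fold change of −0.71 (edgeR adjusted p = 0.501), or −0.57 without the sample of low depth, which gave the lowest value. Pooled over all control and all IFNγ samples of YUMM2.1 the levels were 10.7 and 10.6 CPM.

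Gch1, the first enzyme of biopterin synthesis, lies on chromosome 14 from 47153895 to 47189413, minus strand, and its span holds the pseudogenes Gm49134 and Gm18811, with 42 and 8 counts over all samples. It was 3.45 CPM pooled in YUMM2.1, where it was not tested, and 7.75 CPM in CT26. In CT26 after 2 weeks it was 0.867, 4.63 and 5.18 CPM without rechallenge, 7.69, 7.76 and 12.6 CPM after 2 h and 12.4, 13.4 and 6.77 CPM after 24 h. Rechallenged samples all lay above those without rechallenge. The log2 fold change at 24 h, 1.52 (SE 0.53), was not called (edgeR adjusted p = 0.294). After 3 weeks Gch1 was 7.40, 5.17 and 0 CPM without rechallenge, the 0 coming from the sample of low depth, and 8.45, 21.5 and 7.75 CPM after 2 h. The log2 fold change was 1.18 (SE 0.59, edgeR adjusted p = 0.673), or 0.95 without that sample, and was not called. Gch1 in the 12 CT26 controls spanned 2.11 to 13.7 CPM.

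Nos2 (chromosome 11 from 78920787 to 78960254, plus strand) and Arg1 (chromosome 10 from 24915221 to 24927484, minus strand) had no count with or without IFNγ. Over the 33 IFNγ samples of a line the exact Poisson 95% interval allows levels of up to 0.0803 CPM (YUMM2.1) and 0.096 CPM (CT26). Acod1, on chromosome 14 from 103046977 to 103056573, plus strand, had 1 count in YUMM2.1 controls and 5 in YUMM2.1 IFNγ samples, and 0 and 3 in CT26. Its pooled level with IFNγ was 0.109 CPM (exact Poisson 95% interval 0.0353 to 0.254) in YUMM2.1 and 0.078 CPM (0.0161 to 0.228) in CT26. A difference from controls was not detectable at this depth. The macrophage marker Adgre1 was also at 0 in both lines. Of 8 macrophage markers 5 were detected in YUMM2.1 and 6 in CT26, and their summed level overlapped between control and IFNγ samples (2.36 to 18.7 and 2.07 to 25.8 CPM in YUMM2.1, and 35.1 to 66.5 and 31.0 to 82.8 CPM in CT26, most of it Cd14). Of 4 lymphocyte markers, 0 were detected in YUMM2.1 and 1 in CT26, at 1 count.

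Untreated cells of the 2 lines differed in the baseline of these enzymes. All 5 members tested across lines were called, in a comparison where 46% of all tested genes were called. Sod2 was lower in YUMM2.1 (74.4, 57.9 and 88.0 CPM) than in CT26 (152, 136 and 153 CPM), with a log2 difference of −1.13 (SE 0.15, edgeR adjusted p = 9.03e-10). Lap3 was lower in YUMM2.1 as well, by −0.97 (SE 0.16, edgeR adjusted p = 2.32e-07), and Gch1 by −1.74 (edgeR adjusted p = 0.0195). Ass1 had 25 counts in the 3 untreated YUMM2.1 samples and 0 in CT26, so that YUMM2.1 was at least 9.18-fold higher, with 3 counts over the CT26 group as the floor. That fold takes the 25 counts as measured, without their counting error. Wars differed by −0.37 (SE 0.16, edgeR adjusted p = 0.0445), and with library totals as the only scaling by −0.21 without a call (edgeR adjusted p = 0.331). It was not called without the filter on low counts either (edgeR adjusted p = 0.108). The Wars and Gch1 calls were also lost without replicate 1 or 2 (edgeR adjusted p = 0.192 and 0.132 for Wars, 0.229 and 0.223 for Gch1). Line and library preparation cannot be told apart in this comparison.

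The calls in the wider pathways around these enzymes fell mostly in a few named genes. Over the 12 comparisons of a line, 15 genes of tryptophan and kynurenine metabolism (5 tested in each line) and 7 of biopterin metabolism (6 tested in each) gave 0 calls. The arginine and nitric oxide list of 13 genes (7 tested in YUMM2.1, 5 in CT26) had 0 calls in the first line and 1 higher call in the other. The 19 genes of the itaconate and citrate cycle list were all tested in both lines and had 0 calls in YUMM2.1 and 1 lower call in CT26. The redox list of 23 genes (21 tested in each) had 3 higher and 1 lower call in YUMM2.1 and 3 higher and 6 lower in CT26. The list of 16 peptidases and tRNA synthetases (15 and 14 tested) had 6 and 4 higher calls. Per comparison, 0% to 1.42% of all tested genes were called in YUMM2.1 and 0% to 7.23% in CT26. With shares this low, 0 or 1 call in a list is not read as a result about that pathway.

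Erap1, the endoplasmic reticulum aminopeptidase that trims peptides for MHC class I, carried all 6 YUMM2.1 calls of the peptidase and synthetase list and 3 of the 4 in CT26. Its group mean rose from 4.31 CPM (SD 0.633, n = 3) in the YUMM2.1 0-week control to 57.9 CPM (SD 16.0) in naive cells at 24 h, and from 4.99 CPM (SD 1.95) to 37.3 CPM (SD 21.2) in CT26. The log2 fold changes were 3.62 (SE 0.36) and 2.80 (SE 0.37). At 3 weeks Erap1 remained higher than the same-age control by 2.51 (SE 0.29) and 2.17 (SE 0.33), or 2.58 and 2.33 without the samples of low depth. Its 24 h response after 3 weeks was lower than that of naive cells by a log2 difference of −3.35 (SE 0.44, edgeR adjusted p = 4.87e-08) in YUMM2.1 and −2.49 (SE 0.46, edgeR adjusted p = 0.000189) in CT26, or −3.38 and −2.64 without the samples of low depth. The remaining CT26 call was Pepd, a dipeptidase, at 0.70 (SE 0.19, edgeR adjusted p = 0.034) in naive cells at 24 h.

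Prdx5, a peroxiredoxin that reduces peroxides, was the redox gene called most often, in 3 of 12 comparisons of each line. In CT26 naive cells its mean rose from 184 CPM (SD 8.15, n = 3) to 264 CPM (SD 21.2), a log2 fold change of 0.54 (SE 0.11, edgeR adjusted p = 0.0015). After 24 h rechallenge at 1 week Prdx5 rose by 0.67 in each line, and at 2 weeks by 0.48 (YUMM2.1) and 0.49 (CT26) on the log2 scale. Without the CT26 sample of low depth the 1-week value was 0.57, still called. In YUMM2.1 it was also called at 2 weeks without rechallenge (log2 fold change 0.45, SE 0.11, edgeR adjusted p = 0.0198). No call was made for it after 24 h rechallenge at 3 weeks, where 0 genes were called.

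**Figure D5:**
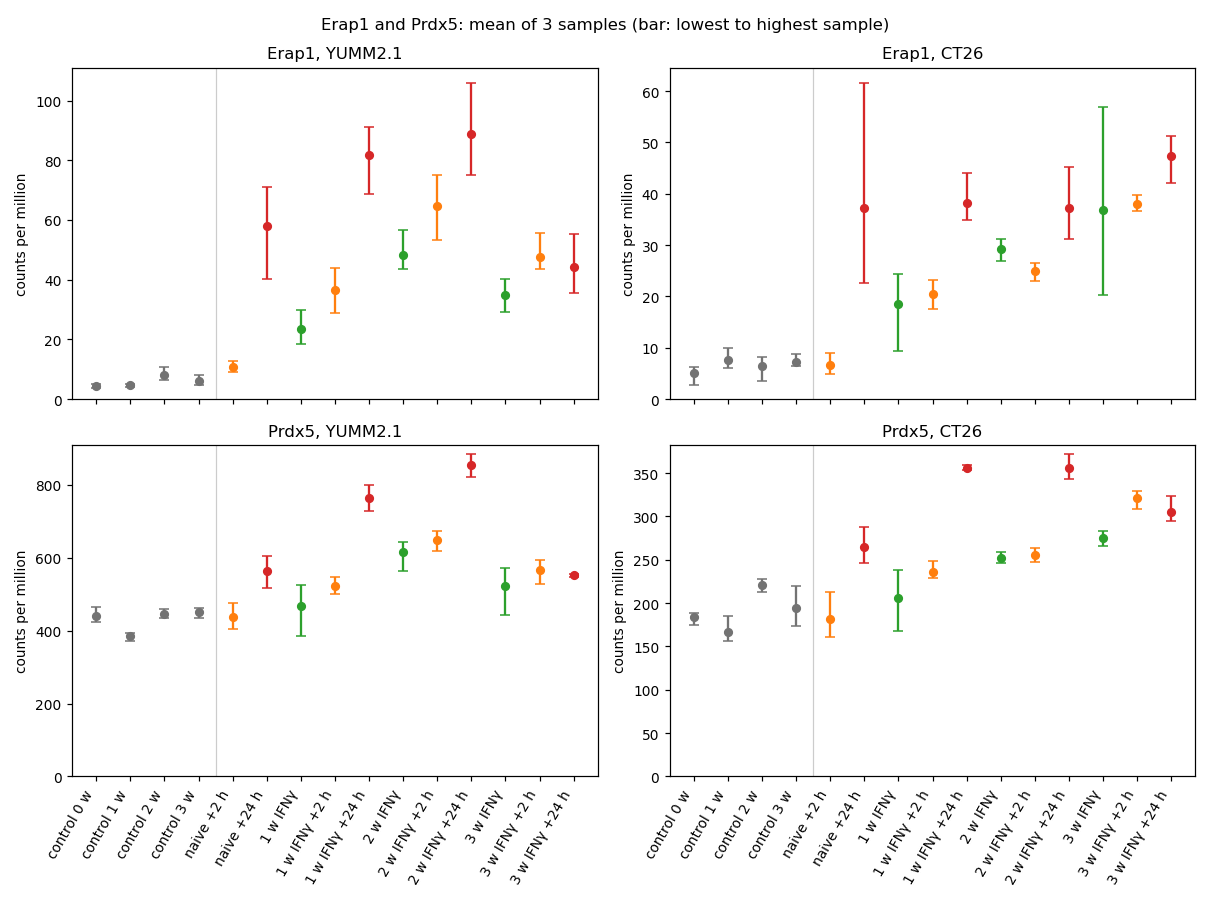
CPM of Erap1 and Prdx5 in each of the 15 groups of YUMM2.1 and CT26, with points for the group mean and bars from the lowest to the highest of the 3 samples. Erap1 rises from a mean of 4.31 CPM in untreated YUMM2.1 cells to 57.9 CPM after 24 h of IFNγ, and Prdx5 in CT26 from 184 to 264 CPM.

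The other calls in these lists each fell in 1 line. In CT26 at 3 weeks, Odc1, the ornithine decarboxylase of polyamine synthesis, rose from a mean of 90.5 CPM (SD 7.24, n = 3) to 224 CPM (SD 149), a log2 fold change of 1.15 (SE 0.32, edgeR adjusted p = 0.0183; 1.37 without the sample of low depth, still called). Its 3 treated samples ranged from 112 to 393 CPM. In the same comparison Idh1, the cytosolic isocitrate dehydrogenase, fell by 0.73 on the log2 scale (SE 0.23, edgeR adjusted p = 0.0435), from 42.8 to 27.3 CPM. The peroxiredoxins Prdx2 and Prdx3 fell by 0.51 and 0.47 on the log2 scale, the Prdx3 samples overlapping with the controls. In this comparison 7.23% of all tested genes were called, and library totals in place of TMM moved the median of all genes by 0.20 and gave 120 lower calls in place of 323. With library totals Idh1, Prdx2 and Prdx3 read −0.53, −0.32 and −0.27 and were not called (edgeR adjusted p = 0.135, 0.0585 and 0.218). Without the sample of low depth Prdx2 was called at −0.54, and Idh1 (−0.61) and Prdx3 (−0.39) were not. The remaining 3 genes fall outside the rule for named genes and were named after their values were seen. The glutathione peroxidases Gpx1 and Gpx4 were lower in CT26 at 2 weeks, by log2 fold changes of −0.78 and −0.74, with 1.67% of all tested genes called. At 3 weeks both read −0.38, Gpx1 with overlapping samples, and with library totals neither was called (−0.19 and −0.18). Without the sample of low depth Gpx1 was called at −0.46 and Gpx4 was not (−0.38, edgeR adjusted p = 0.0528). Hmox1, the inducible haem oxygenase, was lower in YUMM2.1 at 1 week (71.5 against 123 CPM in the control, log2 fold change −0.77, SE 0.16, edgeR adjusted p = 0.002).

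The genes most like each enzyme were found by Pearson's r over the 15 group means of log2 CPM, given as a description with no p, since the groups share cultures and treatment. Wars and Lap3 followed each other with r = 0.929 in YUMM2.1 and 0.937 in CT26, and in CT26 each was the other's closest gene. In YUMM2.1 the closest to Wars were Batf2 (0.966), Usp18 (0.959) and Ifit3b (0.957), and the closest to Lap3 were Il18bp (0.961), Rcn1 (0.937) and Batf2 (0.935). In CT26 Wars was followed by Serhl (0.912) and Snx10 (0.907), and Lap3 by C1s1 (0.930) and Kars (0.903), the last another tRNA synthetase. Sod2 had r = 0.177 with Wars in YUMM2.1 and −0.355 in CT26, and its closest genes were P3h3 (0.805), Arcn1 (0.782) and Cflar (0.760) in YUMM2.1 and Ccar1 (0.866), Gm38393 (0.828) and Rps19-ps3 (0.808) in CT26. Ass1 was closest to Rae1 (0.885), Gm8731 (0.768) and Plrg1 (0.764) in YUMM2.1, and Gch1 to St6galnac4 (0.799), Sertad1 (0.782) and Atp6v1e1 (0.780) in CT26.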

How the data were processed

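The 90 samples, 3 in each of 15 groups per line, were profiled by 3′ digital gene expression. The authors deposited 1 table of raw counts per gene and sample, as whole numbers without normalization, with replicates kept apart. Salmon 0.13.1 and the mouse build mm10 are listed in the submitters' processing notes, and import with tximport is stated in the study's methods. Use of molecular barcodes and of strand in counting is not given in the sources used here. The study states that a few samples were discarded without naming them, so all were kept, and 0 columns were left unused. Of 53697 gene identifiers, 53668 matched a symbol.

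CPM were counts divided by the total count of a sample. Tests used edgeR 4.0.16 in R 4.3.3 (filterByExpr by group, TMM, quasi-likelihood F test, 15 groups of a line in 1 fit or 30 groups for differences between lines). They covered 9589 genes in YUMM2.1, 8516 in CT26 and 10339 across lines, and p-values were adjusted by Benjamini-Hochberg and called below 0.05. Alternatives were DESeq2 1.42.0, library totals alone for scaling, every gene without a filter on low counts, only the compared groups fitted, the replicate number as a block, each replicate left out, and samples under 25% of the median total left out. For the called pathway genes, library totals and leaving out those samples were added after seeing the data. The edgeR procedure was tested on simulated data. Log2 CPM for correlations used a prior count of 2. Samples were grouped by the labels, and p-values measure the spread between the 3 samples of a group.

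The 9 members and all gene lists were chosen with earlier results of these data known. Named beside them were, from each of 6 pathway lists, at most 3 genes called in naive cells at 24 h or at 3 weeks in either line, the 3 genes most correlated with each tested member, and the check genes Irf1 and Cd274. Another check gene is not reported here. Positions are from GENCODE M21 and promoter sequences from RefSeq (GRCm38.p6).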

Additional observations from a re-analysis of the deposited data

Results flagged for a closer look

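In both lines the response of Wars to 24 h of IFNγ differed between cells exposed for 3 weeks and for 1 week, by a test of the difference itself that was added after the data had been seen. The log2 fold change after 3 weeks less that after 1 week was −1.17 in YUMM2.1 (edgeR adjusted p = 0.00745) and −0.94 in CT26 (edgeR adjusted p = 0.00168). In each line all 3 rechallenged samples at 1 week lay above the 3 without rechallenge, whereas at 3 weeks the groups overlapped. The lines differed in which group mean moved between 1 and 3 weeks. In YUMM2.1 the mean after rechallenge went from 161 to 76.2 CPM, and without rechallenge from 69.3 to 73.3 CPM. In CT26 the mean after rechallenge went from 145 to 126 CPM, and without rechallenge from 66.3 to 128 CPM. The values without the samples of low depth were −1.31 and −0.85, both called. The call was lost in YUMM2.1 with only the compared groups fitted (edgeR adjusted p = 0.103) and without replicate 1 or 2 (0.511 and 0.408). In CT26 it was lost without the filter on low counts (0.0884), with only the compared groups fitted (0.179) and without replicate 2 or 3 (0.481 and 0.198). Groups of 3 samples were not searched for outlying samples.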

How the results depend on the processing

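Of 141 tested values of single members, DESeq2 lost 0 calls and gained 2, library totals lost 1 and gained 3, no filter lost 4 and gained 0, only the compared groups (128 values) lost 5 and gained 1, and leaving out the samples of low depth lost 1 and gained 0. Leaving out replicate 1, 2 or 3 lost 11, 13 and 4 calls and gained 0, 0 and 2. The cause was not tested. The depth of the samples limits what can be said of Ido1, Acod1, Gch1 and Ass1.

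The number of members called moved as follows. In YUMM2.1 after 2 h rechallenge at 3 weeks it was 1, with 2 by DESeq2, 2 with library totals, 0 with only the compared groups, 0 without the samples of low depth, and 0 to 1 with a replicate left out. With only the compared groups fitted, YUMM2.1 had 1 instead of 2 after 24 h rechallenge at 1 week and 1 instead of 0 at 2 weeks, CT26 had 1 instead of 2 at 1 week, the difference between 3 weeks and 1 week had 0 instead of 1 in both lines, and untreated lines had 3 of the 3 members then tested instead of 5 of 5. Without the filter CT26 had 0 instead of 1 in naive cells at 24 h, 1 instead of 2 after 24 h rechallenge at 2 weeks, and 0 instead of 1 for the difference between 3 weeks and 1 week, and Wars between untreated lines was the remaining call lost (edgeR adjusted p = 0.108). In CT26 at 3 weeks DESeq2, library totals and the replicate block each gave 2 instead of 1. Library totals gave 1 instead of 0 in CT26 for 24 h rechallenge at 1 week against naive cells. With a replicate left out the counts ran from 0 to 1 in naive cells at 24 h in both lines, in CT26 at 3 weeks, for 24 h rechallenge at 2 weeks in CT26, for both lines' differences between 3 weeks and 1 week, for the YUMM2.1 difference between 3 weeks and naive cells, and for 24 h rechallenge at 1 week against naive cells in CT26. They ran from 0 to 0 in YUMM2.1 at 2 weeks and for 24 h rechallenge at 1 week against naive cells, from 1 to 2 after 24 h rechallenge at 1 week in both lines, and from 3 to 5 between untreated lines.

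The log2 fold changes of Wars and Lap3 that turned sign were all uncalled and are listed here. Signs also turned for Sod2, Gch1 and Ass1, which are not listed. With library totals, 127 of 141 values of all members kept their direction. Library totals gave 0.013 for Lap3 at 2 h after 1 week in YUMM2.1, and in CT26 0.065 for Lap3 at 2 h after 1 week, −0.027 for Wars at 24 h after 3 weeks and −0.044 for Wars in controls. In CT26, Lap3 at 2 h after 1 week was also 0.0038 by DESeq2, 0.0065 without the filter and 0.036 with only the compared groups, Lap3 at 1 week was −0.032 without the filter, and Wars at 24 h after 3 weeks was −0.017 with only the compared groups. For the lines' difference at 24 h, Wars was 0.031 with library totals and 0.010 without the filter, and Lap3 at 3 weeks was 0.040 without the filter. With a replicate left out, YUMM2.1 ranges were −0.055 to 0.30 (Lap3, naive 2 h), −0.023 to 0.13 (Wars, 1 week), −0.31 to 0.12 and −0.21 to 0.052 (Wars and Lap3, 24 h after 3 weeks), and −0.26 to 0.13 (Lap3, controls). CT26 ranges were −0.24 to 0.21 (Lap3, 1 week), −0.11 to 0.19 (Lap3, 2 h after 1 week), −0.14 to 0.023 (Wars, 2 h after 2 weeks), −0.20 to 0.092 and −0.042 to 0.087 (Wars and Lap3, 2 h after 3 weeks), −0.059 to 0.090 (Wars, 24 h after 3 weeks), and −0.077 to 0.12 and −0.14 to 0.029 (Wars and Lap3, controls). The lines' difference at 24 h for Wars ran from −0.10 to 0.019.

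Deviations from the group mean had a median correlation of 0.00049 (YUMM2.1) and 0.006 (CT26) between samples with the same replicate number. Between samples with other numbers it was 0.0027 and −0.0035. In all, 13 of 45 and 21 of 45 samples correlated best with their own number. The number expected without pairing was not computed, so pairing by replicate number was neither shown nor excluded. The replicate block lost 1 call (Wars between untreated lines, edgeR adjusted p = 0.0642) and gained 1 (Lap3 in CT26 at 3 weeks, 2 members called).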
